A study of Arabidopsis thaliana with 8 samples.

Results

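The 9 beta-tubulin genes of Arabidopsis thaliana, TUB1 to TUB9, were followed in root tips kept at high temperature or at the control temperature. They were taken by gene identifier, without use of their values, and all 9 are among the 23632 genes of the deposited normalized table and among the 21739 genes tested. The high temperature group (HT) consisted of Col-0 wild-type seedlings, 5 days old at the start, after 48 h at 30 °C. The control group (CT) consisted of seedlings of the same genotype and age that stayed at 22 °C. RNA came from the outermost 1 mm of the root in pools of 50 seedlings from 5 plates, so that each library averages over all cell types of the tip. In such bulk samples fewer cells of a type and less RNA per cell cannot be told apart. By the labels there are 4 replicates of each group, the methods speak of 3, and all 8 libraries were used. HT replicate 3 stood apart in endodermal genes, with 94.3 normalized reads of CASP1 against 0.877 to 7.51 in the other HT libraries, and the calls of the family were the same without it.

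Beta-tubulin pairs with alpha-tubulin to form the heterodimer from which microtubules are built. In root cells these polymers form the spindle and the phragmoplast during division, and in elongating cells the cortical arrays that guide the deposition of cellulose. The family members are known for different but overlapping expression domains: TUB1 is known as a gene of roots that is repressed by light in shoots, TUB8 for vascular tissue and TUB9 for pollen.

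The family as a whole was lower at high temperature. Summed over the 9 genes, the length-scaled level (FPKM, here read counts per transcript length, which carry the DESeq2 size factors of the normalized table) was 1037, 1065, 1065 and 1152 in the 4 HT libraries, against 1714, 1729, 1728 and 1703 in the 4 CT libraries. No HT library came near the lowest CT library. The sum averaged 1079.6 ± 50.2 FPKM in HT and 1719 ± 12.5 FPKM in CT (SD, n = 4 each), which is 1.59-fold lower in HT (log2 difference -0.67, exact two-sided permutation test p = 0.029, the smallest that 70 arrangements of 8 libraries can give). With all libraries rescaled to the same total of FPKM the log2 difference was -0.43. Of the reads in genes, 0.222 ± 0.008% belonged to the family in HT and 0.306 ± 0.002% in CT (SD, n = 4 each).

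A gene was called higher or lower where the Benjamini-Hochberg adjusted p of limma was under 0.05 and the log2 fold change was at least 0.58 in size. By this rule TUB1, TUB4, TUB5, TUB6 and TUB8 fell, which is 5 of 9, and 0 of 9 rose, whereas of all genes tested 17.5% were called lower, 20% higher and 37.4% either way. At the adjusted p alone all 9 were lower, against 35.2% of all genes. In every member the 4 HT values also lay below the 4 CT values, as they did in 32.7% of all genes tested, while in 32.8% of them the HT values all lay above. The median log2 fold change was -0.72 over the 9 members and 0.01 over all genes tested. These directions depended on the scaling between libraries for 1 member. TUB2 stood at a log2 fold change of 0.02 after quantile normalization. The other 8 stayed below 0, with TUB3 close to it at -0.07.

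**Figure D1:**
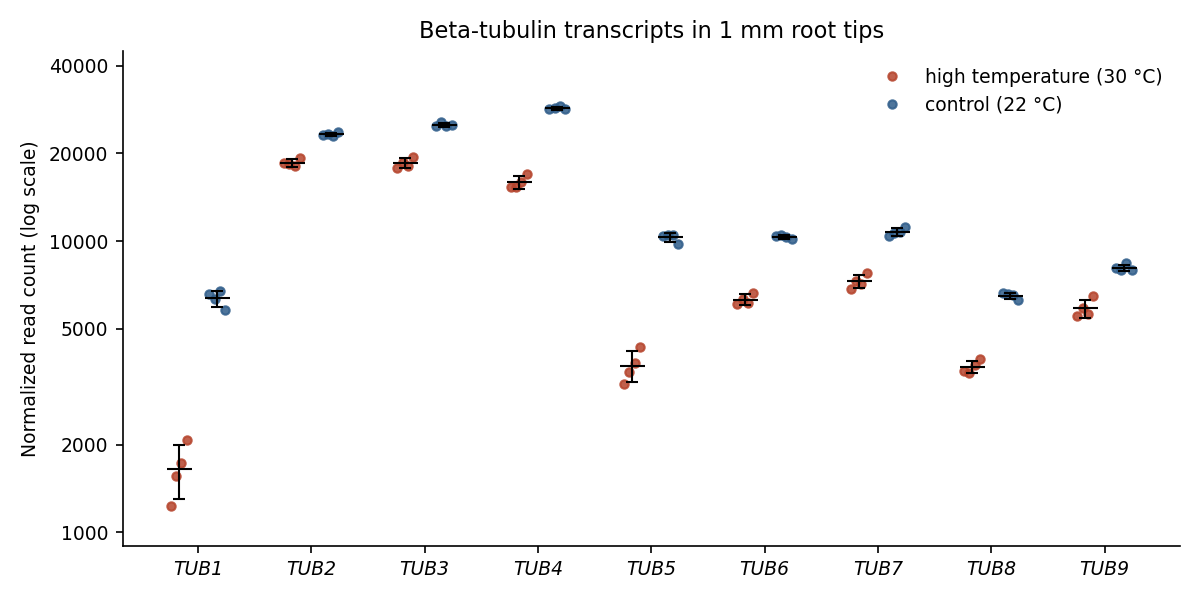
Normalized read count of the 9 beta-tubulin genes on a log axis, with 1 point per library, HT to the left of CT, and bars for the mean ± SD of 4 libraries. The HT points lie below the CT points in all 9 genes on this scale (after quantile normalization TUB2 did not), with the widest gap in TUB1, at 1234 to 2080.4 in HT against 5798 to 6716 in CT.

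The proteins of the family are closely related, and their last residues are known as the part that varies most between tubulins. Between the 36 pairs the coding sequences were 78.7 to 97.6% identical (median 80.4%), and their translations 90.6 to 100% (median 92.2%). TUB2 and TUB3 lie head to tail on chromosome 5, 447 bases apart, and encode the same protein from coding sequences that differ at 32 of 1353 positions. The closest relative of TUB1 was TUB5, with 87.5% identity in the coding sequence, and that of TUB4 was TUB9, also with 87.5%. The last 20 codons and the stop codon are shown for the genes with the largest and the smallest differences between the temperatures, with the codons for the acidic residues aspartate and glutamate in capitals (RefSeq, TAIR10.1, coding strand, 5′ to 3′).
TUB1: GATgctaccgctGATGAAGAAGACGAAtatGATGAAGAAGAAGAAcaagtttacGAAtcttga
TUB5: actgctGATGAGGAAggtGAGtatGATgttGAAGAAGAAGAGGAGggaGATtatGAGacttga
TUB2: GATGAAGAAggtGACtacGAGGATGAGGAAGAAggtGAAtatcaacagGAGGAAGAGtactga
TUB3: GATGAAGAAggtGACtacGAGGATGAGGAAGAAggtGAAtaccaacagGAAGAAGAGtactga
This acidic tail projects from the microtubule surface, where motors and other associated proteins bind. It held 12 acidic codons in TUB1 and in TUB5 and 13 in TUB2 and in TUB3, and 11 to 14 over the family. The tails of TUB2 and TUB3 differ only in synonymous codons. The tail of TUB1 lies at chr1:28451378-28451440 (minus strand), that of TUB5 at chr1:6938033-6938095 (minus strand), that of TUB2 at chr5:25183439-25183501 and that of TUB3 at chr5:25186364-25186426 (both plus strand).

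In contrast to the tails, the start of the coding sequence is shared. In animal cells the first 4 residues of beta-tubulin mark its own mRNA for decay during translation when free tubulin is in excess, which has made this short stretch well known. The first 10 codons of TUB1 (chr1:28453573-28453602, minus strand) and TUB2 (chr5:25181560-25181589, plus strand) are shown with those 4 codons in capitals.
TUB1: ATGAGAGAAATCctccacgtccaaggcggc
TUB2: ATGCGTGAGATTcttcacatccagggtggt
All 9 genes encode the same first 4 residues, written in 5 different sets of 12 bases.

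TUB1 and TUB5 had the largest differences of the family. TUB1 (AT1G75780, chr1:28451138-28453820, minus strand, 3 exons) had normalized read counts of 1234, 1559.7, 1725 and 2080.4 in HT, against 6567, 6341, 6716 and 5798 in CT. The highest HT library was far below the lowest CT library, and the HT libraries were more spread out, with a coefficient of variation of 21.4% in HT and 6.33% in CT. TUB1 was 3.85-fold lower in HT (log2 fold change -1.97, SE 0.11, limma adjusted p = 2.4e-10). The least covered value of the family, TUB1 in HT replicate 1, rests on 1315 reads, for which the counting error is 2.76%. TUB5 (AT1G20010, chr1:6937719-6940832, minus strand, 3 exons) had 3230.0, 3551, 3817 and 4315 normalized reads in HT, against 10412, 10464, 10515 and 9765 in CT. It was 2.76-fold lower in HT (log2 fold change -1.47, SE 0.06, limma adjusted p = 1.8e-11). The HT libraries stood in the same order for both genes, with replicate 1 lowest and replicate 4 highest. HT replicate 4 was the highest HT library for all 9 members, and HT replicate 1 the lowest for 6.

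TUB4, TUB8 and TUB6 formed a second tier, with log2 fold changes between -0.85 and -0.72. TUB4 (AT5G44340, chr5:17859136-17861150, minus strand, 3 exons), the most abundant member in the control, had 15292, 15279, 15975 and 16988 normalized reads in HT, against 28417, 28654, 28986 and 28292 in CT. It was 1.80-fold lower in HT (log2 fold change -0.85, SE 0.04, limma adjusted p = 1.3e-11). The gap between the groups was many times the spread within either. TUB8 (AT5G23860, chr5:8042853-8044934, plus strand, 4 exons) had 3590.3, 3520.2, 3739 and 3940.0 normalized reads in HT, against 6622, 6556, 6509 and 6274 in CT. It was 1.76-fold lower in HT (log2 fold change -0.81, SE 0.04, limma adjusted p = 3.7e-11). Of all pairs of members, TUB4 and TUB8 were the most alike across the 8 libraries, with a root mean square difference of 0.028 between their centred log2 FPKM values. TUB6 (AT5G12250, chr5:3960938-3963624, minus strand, 4 exons) had 6075, 6339, 6116 and 6644 normalized reads in HT, against 10382, 10494, 10301 and 10171 in CT. It was 1.64-fold lower in HT (log2 fold change -0.72, SE 0.03, limma adjusted p = 3.9e-11). The call of TUB6 was lost when every library was rescaled to the same total (-0.51), and those of TUB4 (-0.47) and TUB6 (-0.46) were lost with quantile normalization.

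TUB7, TUB9, TUB3 and TUB2 passed the adjusted p but not the fold threshold. TUB7 (AT2G29550, chr2:12643917-12646057, minus strand, 3 exons) was close to it, with 6862, 7297, 7133 and 7763 normalized reads in HT, against 10378, 10619, 10768 and 11179 in CT (log2 fold change -0.56, SE 0.04, limma adjusted p = 3.1e-09). It passed when CT replicate 1 (-0.58) or HT replicate 4 (-0.60) was left out, which makes 6 of 9 members called. TUB9 (AT4G20890, chr4:11182092-11184559, plus strand, 3 exons), known as a pollen gene, had 5536, 5871, 5615 and 6469 normalized reads in HT, against 8075, 7947, 8389 and 7954 in CT (log2 fold change -0.46, SE 0.04, limma adjusted p = 1.3e-07). Its transcripts were abundant in these tips although the pollen markers were at or near 0, with VGD1 and PPME1 at 0 in all 8 libraries. The 4 pollen markers summed to 5.63 to 9.68 normalized reads in HT and to 10.3 to 23.0 in CT.

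TUB3 (AT5G62700, chr5:25184258-25186777, plus strand, 3 exons) had 17852, 18615, 18161 and 19443 normalized reads in HT, against 24813, 25626, 24873 and 25029 in CT. This is a log2 fold change of -0.44 (SE 0.03, limma adjusted p = 9.2e-09). TUB3 was at -0.07 with quantile normalization (limma adjusted p = 0.025) and at -0.24 with rescaling to equal totals. Its neighbour TUB2 (AT5G62690, chr5:25181296-25183811, plus strand, 3 exons) had 18581, 18359.7, 18031 and 19332 normalized reads in HT, against 23212, 23351, 22919 and 23604 in CT. With a log2 fold change of -0.33 (SE 0.03, limma adjusted p = 1.5e-07) it had the smallest difference of the family, and with quantile normalization it was at 0.02 (limma adjusted p = 0.51). Of the stretches of 50 bases in their transcripts, 22.3% of those of TUB2 and 22.0% of those of TUB3 occurred in the other gene, and 4.56 and 4.51% of the stretches of 150 bases did, so that the counting could have moved reads between them. Taken as 1 gene, the pair had 37093 ± 1168 normalized reads in HT and 48357 ± 545 in CT (SD, n = 4 each). By the scaling as reported this is 1.30-fold lower in HT. On the transcript strand no other member shared a stretch of 100 bases with the transcript of another gene.

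**Figure D2:**
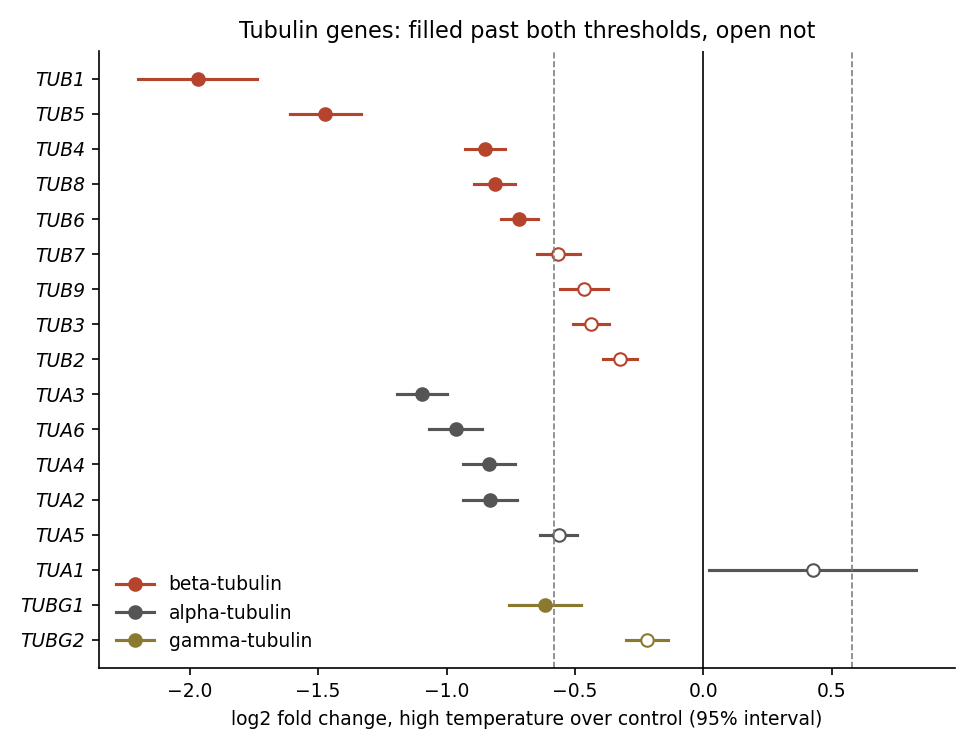
Log2 fold change, HT over CT, of the 9 beta-, 6 alpha- and 2 gamma-tubulin genes with 95% intervals from limma, where filled points passed both thresholds, open points did not and dashed lines mark 0.58 in either direction. The beta-tubulins run from -1.97 (TUB1) to -0.33 (TUB2, which is at 0.02 after quantile normalization), and only TUA1, at 0.42, lies above 0.

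TUB1, TUB6, TUB7 and TUB9 overlap annotated neighbours, and the strand setting of the counting is not given in the sources used here. TUB7 shares 414 bases with RPC14 on the opposite strand, which had means of 1209 normalized reads in HT and 843 in CT. TUB6 shares 83 bases with AT5G12240 on its own strand (992 in HT and 1206 in CT). TUB9 shares 457 bases with MS5 (1.14 in HT and 1.93 in CT). TUB1 shares 11 bases with AT1G75770 (35.01 in HT and 19.9 in CT) and 639 bases with AT1G75785, which was not analysed here. The part of reads from these neighbours in the tubulin values was not tested.

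The members did not move in proportion, so the make-up of the beta-tubulin pool differed between the temperatures. The share of a gene in the summed FPKM of its own library does not depend on the scaling between libraries. TUB2 and TUB3 together held 45.9, 45.4, 44.4 and 44.0% of the pool in HT, against 36.6, 37.0, 36.1 and 37.3% in CT. This was a gain of 8.16 percentage points in HT (means 44.9 ± 0.89% and 36.8 ± 0.51%, SD, n = 4 each, exact two-sided permutation test p = 0.029). Each of the pair gained, TUB2 by 4.83 points to 22.6% in HT, against 17.8% in CT, and TUB3 by 3.33 points to 22.3% in HT, against 19.0% in CT. TUB9 (6.31% in HT, 5.47% in CT) and TUB7 (9.38% in HT, 8.71% in CT) also held larger shares in HT.

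The other 5 members, the same that passed both thresholds, held smaller shares in HT. A share is lower where a gene fell more than the sum, so both rest on the same values. TUB1 held 1.67, 2.06, 2.28 and 2.54% of the pool in HT, against 5.39, 5.15, 5.46 and 4.78% in CT, the steepest relative loss of the 9. TUB5 held 3.92, 4.19, 4.51 and 4.71% in HT, against 7.64, 7.61, 7.65 and 7.21% in CT. TUB4 (20.7% in HT, 23.4% in CT), TUB8 (4.65% in HT, 5.13% in CT) and TUB6 (7.51% in HT, 7.75% in CT) lost less. The groups did not overlap for any of these shares. Each of the 10 comparisons, the 9 single shares and that of the pair, had the smallest exact permutation p of 0.029 (Benjamini-Hochberg adjusted p = 0.029). The shares of a library add up to the whole, so these comparisons are not independent. The permutation p of the share of TUB7 was 0.057 in 4 of the 8 runs with 1 library left out, those without an HT library. That of TUB6 was 0.057 in 4 of the 8 runs, those without a CT library.

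**Figure D3:**
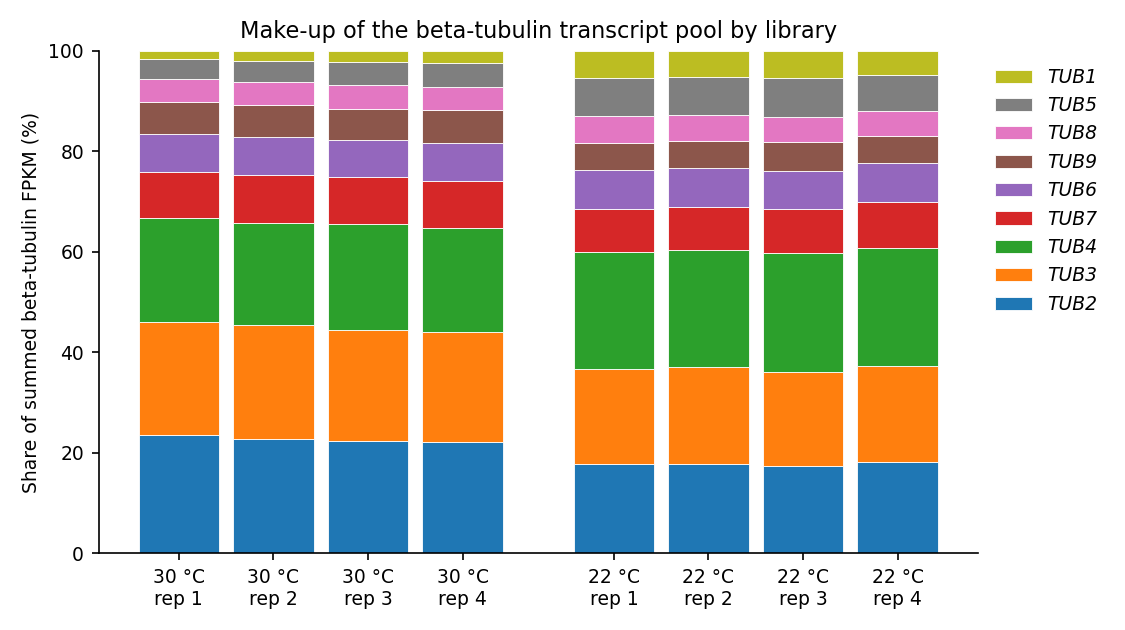
Share of each beta-tubulin gene in the summed FPKM of the family, in percent, as 1 stacked bar per library, with the 4 HT libraries left of the 4 CT libraries. TUB2 and TUB3, the lowest 2 segments, reach 44.0 to 45.9% in HT and 36.1 to 37.3% in CT, while TUB1 and TUB5 at the top are thinner in every HT library.

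The order of the levels per length changed accordingly. In HT TUB2 (244 ± 7.26 FPKM), TUB3 (241 ± 9.0 FPKM) and TUB4 (224 ± 11.3 FPKM) led, and neighbours in this order overlapped between libraries. They were followed by TUB7 (101 ± 5.28 FPKM), TUB6 (81.1 ± 3.36 FPKM) and TUB9 (68.2 ± 4.91 FPKM), each clear of the next. TUB8 (50.2 ± 2.52 FPKM) and TUB5 (46.9 ± 5.77 FPKM) overlapped, and TUB1 (23.2 ± 4.95 FPKM, SD, n = 4 for each value) was last. In CT TUB4 (403 ± 4.30 FPKM) stood above TUB3 (326 ± 4.83 FPKM) and TUB2 (306 ± 3.75 FPKM), with no overlap among the 3. TUB7 (149.7 ± 4.69 FPKM) came next, TUB6 (133 ± 1.75 FPKM) and TUB5 (129 ± 4.42 FPKM) overlapped, and so did the neighbours TUB9 (94.0 ± 2.41 FPKM), TUB1 (89.3 ± 5.65 FPKM) and TUB8 (88.1 ± 2.05 FPKM). The ratio of TUB4 to TUB2 was thus 0.917 ± 0.034 in HT and 1.32 ± 0.03 in CT, and that of TUB3 to TUB2 was 0.987 ± 0.024 in HT and 1.07 ± 0.02 in CT (SD, n = 4 each). Of the 32833 genes of the FPKM table, 4767 had a higher mean than the lowest member in HT, TUB1, and 1394 a higher mean than the lowest in CT, TUB8.

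The bases upstream of the annotated transcript start are shown for TUB1 and TUB2, the members with the largest and the smallest difference. The 250 bases before the start of TUB1 (RefSeq, TAIR10.1, chr1:28453821-28454070, minus strand) and of TUB2 (chr5:25181046-25181295, plus strand) were searched for 6 motifs on both strands, and the matches are in capitals.
TUB1: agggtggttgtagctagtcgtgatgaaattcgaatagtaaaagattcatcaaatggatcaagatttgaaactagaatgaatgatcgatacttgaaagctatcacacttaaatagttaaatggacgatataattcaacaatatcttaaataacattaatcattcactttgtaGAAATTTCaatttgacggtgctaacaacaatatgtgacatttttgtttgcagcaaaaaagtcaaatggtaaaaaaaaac
TUB2: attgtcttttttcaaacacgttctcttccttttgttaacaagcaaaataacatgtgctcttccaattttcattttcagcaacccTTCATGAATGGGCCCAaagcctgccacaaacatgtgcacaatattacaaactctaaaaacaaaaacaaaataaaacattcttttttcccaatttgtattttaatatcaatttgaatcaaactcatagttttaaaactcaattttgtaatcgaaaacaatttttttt
The heat shock element, to which heat shock factors bind, was searched in its 2-unit form (GAANNTTC or TTCNNGAA). It begins 79 bases before the start in TUB1 and 166 before it in TUB2, and was also found in TUB3 and TUB8, which is 4 of 9 genes, while 16.1% of the 27444 nuclear promoters searched hold it. It occurred both in the member with the largest and in that with the smallest difference. A link between motifs and differences was not tested. The 3-unit form was found in none of the 9 and in 0.386% of all promoters. The site II element (TGGGCC or TGGGCT), known from genes of growing cells, stood directly after the heat shock element in TUB2, and was also found in TUB3 and TUB5 (19.2% of all promoters). The core of the mitosis-specific activator (AACGG), bound by MYB factors of dividing cells, was found in TUB7 and TUB8 (20.6% of all promoters), the G-box (CACGTG), bound by bHLH and bZIP factors, in TUB7 (6.49%), and the telo-box (AAACCCTA) in none (4.49%).

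Alpha-tubulin, the partner in the heterodimer, fell more than beta-tubulin. The summed FPKM of the 6 alpha-tubulin genes was 1161 ± 88.1 in HT and 2104 ± 14.7 in CT (SD, n = 4 each), which is 1.81-fold lower in HT. The ratio of summed beta- to summed alpha-tubulin FPKM was 0.992, 0.917, 0.901 and 0.916 in HT, against 0.816, 0.818, 0.816 and 0.817 in CT. All HT libraries had the higher ratio, and HT replicate 1 stood apart from the other 3. The log2 ratio was 0.19 higher in HT (exact two-sided permutation test p = 0.029), and 0.16 higher without HT replicate 1.

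Of the alpha-tubulins 4 of 6 fell and 0 rose, beside 17.5% of all genes tested called lower and 20% higher. TUA3 (log2 fold change -1.10) and TUA6 (-0.97, with 20983 to 25753 normalized reads in HT against 45711 to 46052 in CT) had the largest differences. TUA4 and TUA2 (both -0.83), which encode the same protein, fell alike. TUA5 (-0.56), whose protein is that of TUA3, was not called, and it passed the fold threshold without CT replicate 4 or without HT replicate 4. TUA3 and TUA5 share more sequence than TUB2 and TUB3, with 31.96% of the stretches of 50 bases of TUA3 and 35.4% of those of TUA5 found in the other gene, so that their values may hold reads of each other. To a lesser extent this also holds for TUA2 (10.5%) and TUA4 (18.4%), which share stretches with each other and with TUA6. TUA1, known as the alpha-tubulin of pollen, had 128, 109.6, 138 and 131 normalized reads in HT, against 80.6, 114, 126 and 67.0 in CT (log2 fold change 0.42, limma adjusted p = 0.055). Its groups overlapped. It was called higher (0.63) when libraries were rescaled to the same total, and with quantile normalization only TUA3 of the alpha-tubulins was called lower.

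Genes that nucleate microtubules had a smaller median difference with the scaling as reported. Of 14 genes for gamma-tubulin, its ring complex and augmin, which places new microtubules on existing ones, 3 fell and 0 rose, with a median log2 fold change of -0.49, and the share that fell was near the 17.5% of all genes. The gamma-tubulin gene TUBG1 had 783, 954, 882 and 991 normalized reads in HT, against 1296, 1372, 1399.8 and 1455 in CT (log2 fold change -0.62, limma adjusted p = 5.3e-07). TUBG2 had 1431 ± 37.3 normalized reads in HT and 1665 ± 28.6 in CT (SD, n = 4 each, log2 fold change -0.22, limma adjusted p = 0.00011), and was not called. The other called genes were AUG2 (-0.69) and AUG8 (-0.66). At the adjusted p of limma alone 14 of 14 were lower before rescaling, beside 35.2% of all genes tested lower and 35.9% higher. With libraries rescaled to the same total, 0 of the 14 were called by both thresholds. With quantile normalization TUBG1 (-0.63), AUG1 (-0.59), AUG2 (-0.69) and AUG8 (-0.80) were called lower. Of the beta-tubulins TUB1, TUB5 and TUB8 were called lower with that setting.

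New tubulin is folded by prefoldin, the CCT chaperonin and the tubulin-folding cofactors before the heterodimer forms. Beside the 17.5% of all genes called lower, 6 of 9 CCT subunit genes fell and 0 rose (median log2 fold change -0.63), led by CCT8 (-0.91), CCT1 (-0.86) and CCT3 (-0.81). CCT8 had 11139 to 12541 normalized reads in HT against 22011 to 23091 in CT. With quantile normalization 0 of the 9 were called. Of 6 prefoldin genes PFD4 (-1.08) and PFD1 (-0.65) fell and 0 rose (median -0.52), and the call of PFD1 was lost when libraries were rescaled to the same total. Of 5 cofactor genes TFCA (-0.81), also known as KIESEL, and TFCE (-0.80), also known as PFIFFERLING, fell and 0 rose (median -0.48). TFCA had 1382 to 1545 normalized reads in HT against 2495 to 2714 in CT.

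Genes for proteins that bind to microtubules did not stand out by their calls, which need both thresholds. Of the 23 tested of 24, 5 fell, a share near the 17.5% of all genes. Those that rose were 2, a smaller share than the 20% of all genes. The median log2 fold change was -0.35. At the adjusted p alone 17 of the 23 were lower and 3 higher, beside 35.2% and 35.9% of all genes tested. The 3 largest decreases were in MAP65-5 (-1.62), MAP65-4 (-0.94) and MAP65-3 (-0.78), of a family that crosslinks microtubules and of which MAP65-3 acts in the phragmoplast. With libraries rescaled to the same total the calls of MAP65-5 and MAP65-4 held and the other 3, that of MAP65-3 among them, were lost. MAP65-5 had 36.2 to 62.9 normalized reads in HT against 147 to 157 in CT. MAP65-7 (0.75, with 1196 to 1239 normalized reads in HT against 679.7 to 784 in CT) and WDL1 (0.69, with 259.6 to 313 in HT against 159 to 187 in CT) rose. WDL1 belongs to a family of microtubule-bundling proteins that affects the twisting of organs, and its call was lost with quantile normalization. Over these lists together, from the alpha-tubulins to the binding proteins, 22 of 63 tested genes fell and 2 rose. Of all genes tested, 17.5% were called lower and 20% higher. With libraries rescaled to the same total 13 of these lists' genes fell, and TUA1, MAP65-7 and WDL1 rose. Over all genes 2595 were then called lower and 5967 higher, against 3797 and 4344 as reported.

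**Figure D4:**
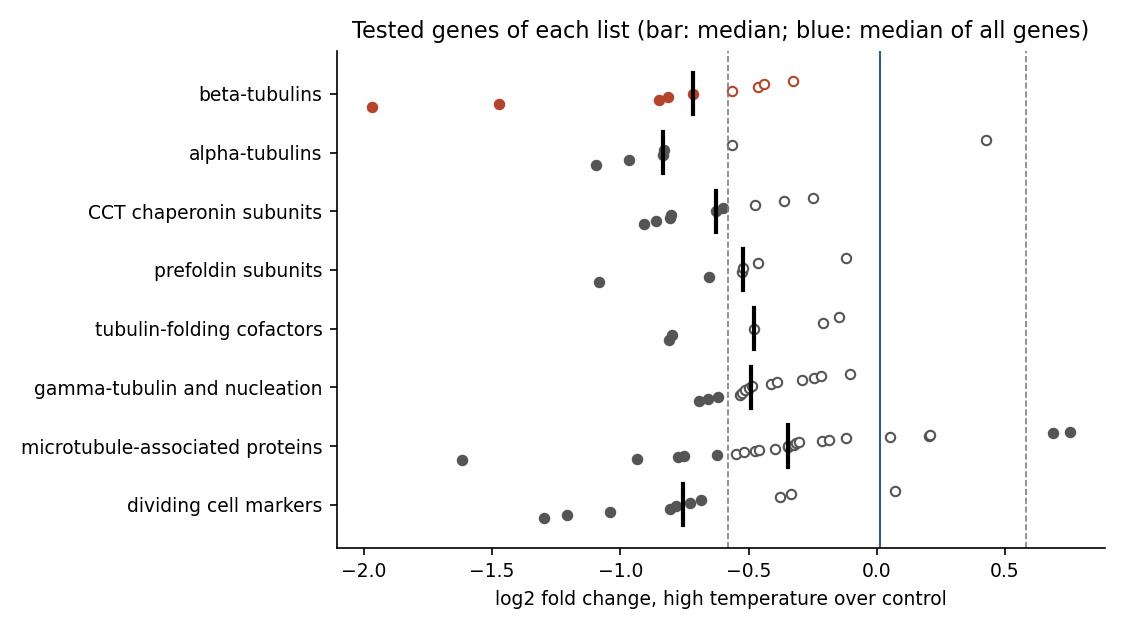
Log2 fold change, HT over CT, of each tested gene of 8 lists, where filled points passed both thresholds, black bars mark list medians and the blue line the median of all genes tested (0.01). With the scaling as reported, the median of the beta-tubulins (-0.72) lies between those of the CCT subunits (-0.63) and the alpha-tubulins (-0.83). The only points past the upper threshold are MAP65-7 and WDL1 (for TUB2 and TUA1 the direction or call changed with the scaling).

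Markers of several cell types also differed between the groups, and their counts stand beside the 17.5% of all genes called lower and the 20% called higher. Of 10 genes of dividing cells 7 fell and 0 rose (median log2 fold change -0.76), and their summed normalized reads ranged from 7590.5 to 8198 in HT and from 11860.3 to 13548 in CT. Among the most abundant, CYCB1;2, a mitotic cyclin, fell (-1.04), as did CDKB1;1 (-0.78), whereas CDKB2;1 was at 0.07 (limma adjusted p = 0.27). The calls of CDKB1;1 (-0.579), CYCB2;1 (-0.53) and KN (-0.48) were lost when libraries were rescaled to the same total. Of 11 genes of differentiated root cells 3 fell and 1 rose, with sums of 723 to 1151 in HT and 1049 to 1887 in CT. The 3 that fell were COBL9 (-7.93) and EXPA7, both of root hairs, and PRP3. None of the CASP genes, which are endodermal, was called. CESA7 of xylem rose (0.70) and CESA4 was at 0.01. CESA8 of the same list was not called, and was at -0.40 with libraries rescaled to the same total and at -0.82 with quantile normalization. The call of CESA7 was lost with quantile normalization (0.52). Of 8 genes of root tip identity 2 rose, WOX5 and PLT1, and 0 fell, with sums of 10951 to 11617 in HT and 10757 to 11485 in CT. The most abundant of them, SCR (-0.17), PLT1 (0.91) and SHR (-0.31), were expressed in all 8 libraries. All 3 tested leaf genes fell, with sums of 10.3 to 18.4 in HT and 153 to 181 in CT, led by CAB1 (-2.87) and PSAD (-5.74), and RBCS1A was at 0 in the 4 HT libraries. The part of any of these cell types in the beta-tubulin values was not tested.

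Finally, genes outside the tubulins were ranked by how closely their log2 FPKM pattern over the 8 libraries followed the summed beta-tubulins, among 15499 genes with a mean of at least 100 normalized reads. The closest was SMT1 (AT5G13710), a sterol methyltransferase, with a root mean square difference of 0.011 on the log2 scale. Next came AT5G16300 (0.016), PBG1 (AT1G56450), a subunit of the proteasome core (0.016), AT5G08300 (0.017) and APX1 (AT1G07890), a cytosolic ascorbate peroxidase (0.018). SMT1 had 8418 ± 379 normalized reads in HT and 13339 ± 107 in CT (SD, n = 4 each). Its log2 fold change was -0.67, as that of the tubulin sum, which follows from the choice by pattern. Among the members the pair that differed most was TUB1 and TUB2 (0.84).

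**Figure D5:**
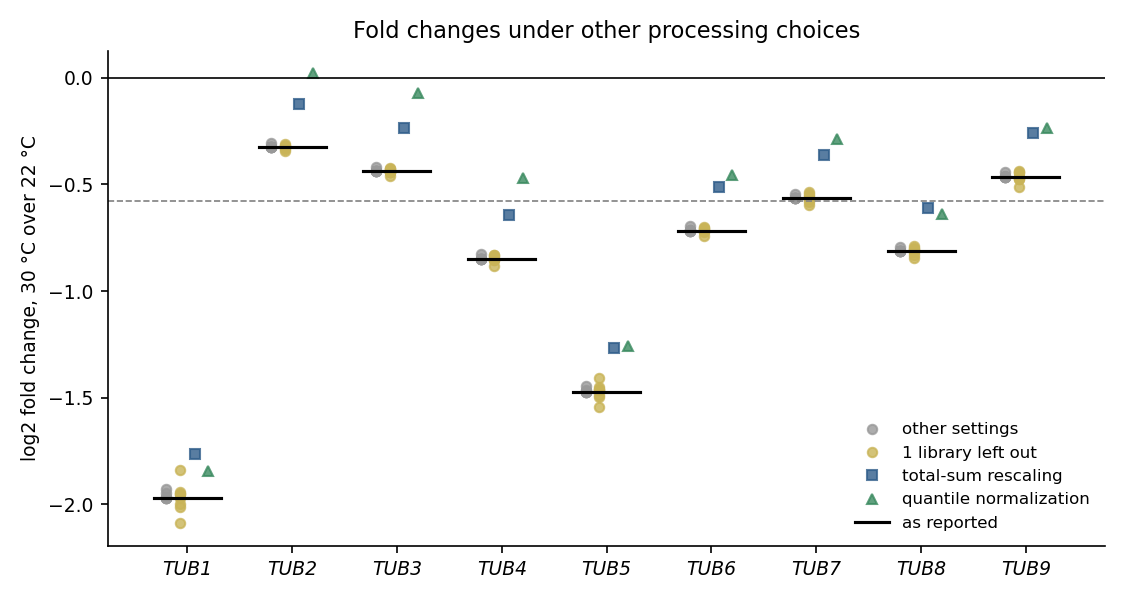
Log2 fold change, HT over CT, of each beta-tubulin gene as reported (black bar), with 1 library left out, after rescaling to equal totals, after quantile normalization and under the other settings, with the dashed line at -0.58. TUB1 and TUB5 stay far below the dashed line under every setting shown, whereas TUB6 lies above the dashed line under both rescalings and TUB2 is at 0.02 with quantile normalization.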

How the data were processed

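Poly(A) RNA of 1 mm root tips was sequenced as directional libraries on an Illumina NovaSeq instrument. HISAT2, DESeq2 and TAIR10 are listed in the processing notes of the submitters, and for versions, counting program, read length and strand setting the sources used here give nothing. The authors deposited read counts divided by DESeq2 size factors, a normalized signal per gene, and FPKM values for 32833 genes. Both tables carry the same scaling. Within 0.01 of a read, 100% of the normalized values were whole reads, with 38216649 to 41833843 reads in genes per HT library and 38396646 to 40750937 per CT library. Replicates differed by more than sampling noise (mean chi-square per gene 3.22 to 11.2).

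The log2 of each normalized value plus 0.5 was fitted with limma 3.58.1 (intensity trend, no covariates) in R 4.3.3 for the 21739 genes whose mean was at least 1. Fold changes are on this scale. The Benjamini-Hochberg adjustment ran over all tested genes, and a call needed an adjusted p under 0.05 and a log2 fold change of at least 0.58, the thresholds of the methods. Sums, shares and ratios of FPKM were put to exact two-sided permutation tests with 70 arrangements. P-values measure the spread between these pools of seedlings. The limma calls were checked on simulated counts, with far fewer changed genes than the 37.4% called here. That check did not cover the scaling between libraries.

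Alternatives were edgeR 4.0.16 and DESeq2 1.42.0 on the recovered reads, other pseudocounts (0.1 and 1) and filters, FPKM, rescaling to equal totals, quantile normalization, no fold threshold, a replicate block and leaving out each library. Named are all tubulins, up to 3 called genes with the largest change in each list, the 3 most abundant genes of each marker list and the 5 genes closest in pattern. The neighbours of the tubulin genes, the CASP genes, WOX5, VGD1, PPME1 and the genes that rose were named after their values were seen. Named in the same way were EXPA7, PRP3, CESA8, CYCB2;1, KN and AUG1. Members, lists and tests were chosen with earlier results of these data known. Gene models, names and sequences are from RefSeq TAIR10.1, in which 23479 of 23632 identifiers were found, and the exon lengths of the 9 genes were the same as those implied by the ratio of both tables.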

Additional observations from a re-analysis of the deposited data

Results flagged for a closer look

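Within each group of 4 libraries, the lowest and the highest were compared with the rest by Dixon's gap over range, which exceeded its 95% critical value in 3 of 56 groups. Chance flags about 1 in 20 groups. The normalized reads of TUB5 in CT replicate 4 were 9765.2, below the other CT libraries at 10412 to 10515. The share of TUB5 in the summed beta-tubulin FPKM was 7.21% in the same library, below 7.61 to 7.65% in the other 3. Both are the same low value of 1 gene. The log2 ratio of TUB3 to TUB2 in HT replicate 1 was -0.0726, below -0.0067 to 0.0050 in the other HT libraries. The causes were not tested.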

How the results depend on the processing

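Over 19 settings and 9 members, 170 of 171 log2 fold changes were below 0 with an adjusted p under 0.05, and 162 of 171 calls were as reported. The exception was TUB2 with quantile normalization (0.02). These settings are not independent. Without the fold threshold the fitted values are those of the reported fit, the replicate block leaves the fold changes as they were, and 8 settings leave out only 1 library. Most settings keep the scaling between libraries, so the tally says little about that scaling. The count of called beta-tubulins was 3 with quantile normalization (TUB1, TUB5 and TUB8), 4 with rescaling to equal totals, 9 without the fold threshold, and 5 to 6 with 1 library left out. Rescaling to equal totals moved the median of all genes to 0.22 and the share of higher calls to 69.7%, against 53.4% as reported (5967 higher and 2595 lower). The summed beta-tubulin log2 difference was then -0.43. Of the related genes 13 were then lower, 56 without the fold threshold, and 1 was higher with quantile normalization. On the recovered reads edgeR called 4409 genes higher and 3636 lower and DESeq2 4203 higher and 3706 lower, and both called the same 5 members as limma. Without the fold threshold 7798 of all genes were higher and 7657 lower.

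With 1 library left out, the log2 difference of the beta-tubulin sum ranged from -0.70 to -0.65, that of the beta-to-alpha ratio from 0.16 to 0.20 and the gain of TUB2 and TUB3 from 7.83 to 8.48 points. Correlations of deviations between HT and CT libraries were 0.003 to 0.077 for equal replicate numbers and -0.086 to 0.046 for unequal numbers. All were small, and whether equal numbers stand for a shared batch cannot be told from them. With the replicate block the sum (-0.67), the ratio (0.19) and the gain (8.16 points) reached p = 0.125 in an exact sign-flip permutation test, the smallest that 4 pairs can give, and limma with the block called the same 5 members. The causes of these changes were not tested. The fewest reads of a member in a library were 1315, a counting error of 2.76%.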
